A study of Mus musculus with 6 samples.

Results

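Small leucine-rich proteoglycans (SLRPs) are secreted matrix proteins built around a run of leucine-rich repeats, and 8 genes of the family were taken by symbol from the RNAseq counts of mouse pancreatic fibroblasts: Dcn (decorin), Lum (lumican), Bgn (biglycan), Fmod (fibromodulin), Ogn (osteoglycin), Prelp, Aspn (asporin) and Podn (podocan). All 8 of the 8 named genes were in the table, out of 14831 genes listed, and all 8 had enough counts to be tested among 14289 genes. The data are 6 libraries from immortalized pancreatic fibroblasts of mixed strain, 3 with the label WT and 3 with the label Gli2-/-;Gli3-/- (KO), each from its own confluent well. According to the study's methods, such lines grew out of pancreata of adult mice with floxed Gli alleles and were infected after immortalization, the controls with an eGFP adenovirus and a dsRed lentivirus, the knock-outs with eGFP and Cre adenoviruses driven by the CMV promoter, and infected cells were isolated by flow cytometry. Both groups therefore received an eGFP adenovirus and came from floxed mice. The study compared these cells to examine the function of GLI2 and GLI3, transcription factors of the Hedgehog pathway, in the stroma of the pancreas. The p-values below measure the spread between wells and library preparations, since nothing in the sources says that the wells came from separately made lines.

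Proteins of this family bind fibrillar collagens and set the width and spacing of collagen fibrils, and many of them also hold growth factors such as TGF-beta in the matrix. Decorin, biglycan and asporin form class I, where decorin carries a single chondroitin or dermatan sulfate chain, biglycan usually carries a pair of them and asporin carries none. Lumican, fibromodulin and PRELP belong to class II, whose members can carry keratan sulfate, osteoglycin belongs to class III and podocan to class V. In the pancreas, fibroblasts and stellate cells are the main source of these proteins, and decorin and lumican are common markers of fibroblasts in tissue.

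Gli2 and Gli3 were read as the check of the labels. Gli2 had 27.1 ± 1.19 CPM (counts scaled to library size with edgeR's TMM factors) in the WT-labelled libraries and 56.2 ± 1.96 in the KO-labelled ones, and Gli3 had 12.5 ± 0.0440 and 40.8 ± 1.64 CPM (SD, n = 3 each). Both were higher in every KO-labelled library, which goes against the genotype of the label, while Gli1, a target of the pathway, was lower there (1.31 ± 0.169 and 0.249 ± 0.141 CPM). Gli1 was covered by 40, 50 and 37 counts in the WT-labelled libraries and 4, 10 and 13 in the KO-labelled ones. Counts on a whole gene also include reads from exons outside a deletion, but their part in the higher Gli2 and Gli3 counts was not tested. The study states that deletion in such lines was checked by qPCR and western blot. It also reports that Gli2/Gli3 KO fibroblasts were unresponsive to Hedgehog stimulation, yet kept Gli1 expression at a baseline level. For Ccl5, Il6 and Il11 it reports that qPCR bore out the changes seen by RNAseq. Those measurements were not analysed here. The groups are therefore named by their labels, WT-labelled and KO-labelled, and every direction below rests on labels that the counts of Gli2 and Gli3 go against. The libraries held between 31728420 and 41035931 counts. Of 10 fibroblast markers 8 were listed, without Pdpn and Fap, and 7 were tested. Col1a1 (15982 and 16113 CPM) and Vim (4285 and 3912) were abundant in both groups, whereas Thy1, a further fibroblast marker, was near 0 (0.0525 and 0.390 CPM). Among the 7 tested, 3 fell (Col3a1, Pdgfra and Pdgfrb) and 1 rose (S100a4) in the KO-labelled libraries. All 5 mesothelial markers listed, of 6, were higher in the KO-labelled libraries, their summed level ranging from 22.6 to 25.6 CPM in the WT-labelled libraries and from 291 to 293 in the KO-labelled ones, with Msln at 2.37 and 166 CPM. Of the 9 epithelial markers 4 were listed, at sums of 11.7 to 14.1 and 37.6 to 39.5 CPM with Krt8 near 0 in both groups, 3 of the 7 leukocyte markers were listed, at sums of 39.5 to 45.6 and 38.4 to 40.1 CPM, and 0 of the 5 endothelial markers were listed. Of 8 smooth muscle or pericyte markers 4 were listed and tested, without Myh11, Des, Rgs5 and Cspg4. Cnn1 and Mcam rose, and Acta2 (0.01 on the log2 scale) and Tagln (-0.03) were not called. Of 8 chondrocyte or tendon markers 4 were listed and tested, without Acan, Col2a1, Tnmd and Thbs4. Matn3 and Scx rose, and Mkx (0.11) and Sox9 (-0.50) were not called. The part of these markers in the changes below was not tested.

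Of the 8 genes, 3 fell in the KO-labelled libraries (Lum, Dcn and Prelp) and 1 rose (Aspn), under labels that Gli2 and Gli3 counts go against. The other 4 genes, Bgn, Fmod, Ogn and Podn, lay within 1.5-fold between the groups. The quasi-likelihood test of edgeR was used, and a gene was called if it changed at least 1.5-fold with a Benjamini-Hochberg adjusted p under 0.05, a rule that called 4 of the 8 genes against 17.7% of all genes tested (11.6% higher and 6.1% lower). Without the fold limit 7 of the 8 passed, but so did 58.7% of all genes, and the groups did not overlap for 7 of the 8, as for 64.2% of all genes. The median log2 fold change over the 8 genes was -0.23 and the median absolute value 0.66, beside 0.00 and 0.22 over all genes tested. In bulk RNA, fewer cells that express a gene and less RNA per cell cannot be told apart.

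**Figure D1:**
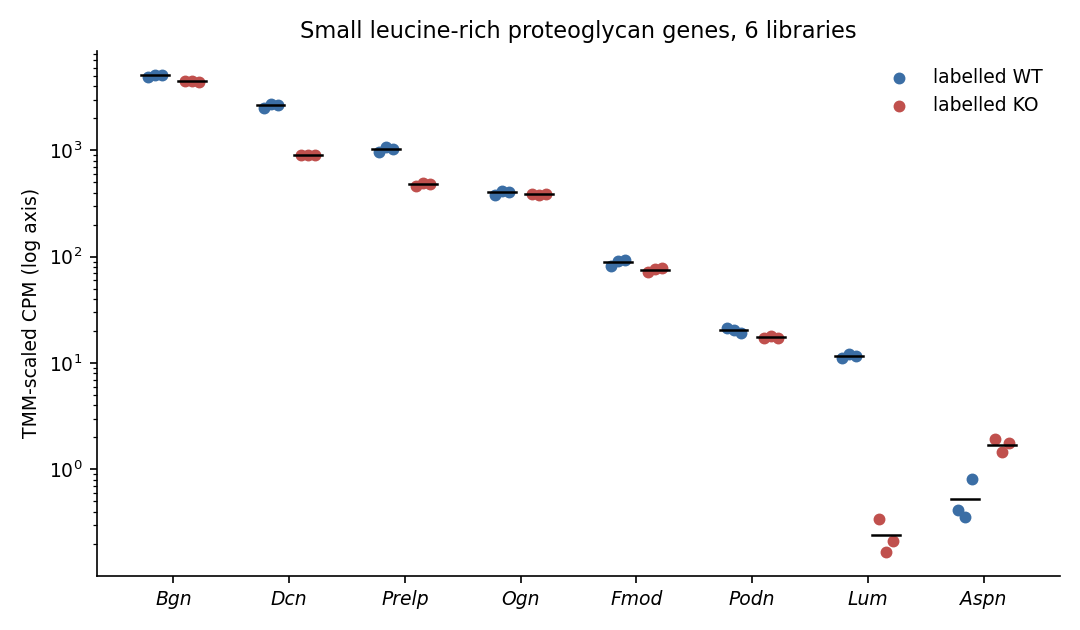
TMM-scaled CPM (log axis) of the 8 genes in the 6 libraries, 1 point for each library and a black line at the mean of each group of 3, in blue for WT-labelled libraries and red for the KO-labelled ones. Lum, Dcn and Prelp sit lower in all 3 libraries labelled KO, Aspn sits higher, and the points of Ogn overlap between the groups.

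Decorin, the class I protein that binds collagen fibrils and sequesters TGF-beta, gave the largest loss of transcript in absolute terms. Dcn (chromosome 10 from 97479609 to 97518143 on GRCm38, GENCODE M21, as for all gene positions here) had 78837, 91927 and 85206 counts in the WT-labelled libraries and 32066, 37392 and 30076 in the KO-labelled ones, or 2516, 2745 and 2669 CPM against 906, 897 and 911. The KO-labelled libraries were nearly equal to each other and far under the lowest WT-labelled library. The log2 fold change was -1.55 (standard error 0.03, 95% interval -1.62 to -1.47, edgeR adjusted p = 1.51e-12), a 2.92-fold fall. Even so, Dcn stayed at the 99.4th percentile of expression among the genes tested in the KO-labelled libraries, from the 99.9th in the WT-labelled ones.

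Biglycan, the closest relative of decorin, did not follow it. Bgn (chromosome X from 73483602 to 73495933) had 4887, 5149 and 5121 CPM in the WT-labelled libraries and 4474, 4490 and 4433 in the KO-labelled ones, and 6 of the 14289 genes had a higher mean in the WT-labelled libraries. The groups did not overlap, but the difference was small: -0.18 on the log2 scale (standard error 0.03, 95% interval -0.24 to -0.12, edgeR adjusted p = 0.00011), or 1.13-fold lower in the KO-labelled libraries and under the fold limit. Xist, the RNA of the inactive X chromosome, was counted in all 6 libraries at between 585 and 1415 CPM. It was itself lower in the KO-labelled ones (log2 fold change -0.80, standard error 0.13, edgeR adjusted p = 0.000176). Its part in the level of the X-linked Bgn was not tested. The other 4 sex-linked genes looked for, Ddx3y, Eif2s3y, Kdm5d and Uty, were not among the genes listed. Asporin, the member of class I without a sugar chain, went the other way from a low level. Aspn (chromosome 13 from 49544443 to 49567565) was covered by 13, 12 and 26 counts in the WT-labelled libraries and 68, 61 and 58 in the KO-labelled ones, or 0.415, 0.358 and 0.815 CPM against 1.92, 1.46 and 1.76. Each KO-labelled library was above the highest WT-labelled library, although 1 WT-labelled library had about as many counts as the other 2 together. Aspn rose by 1.68 on the log2 scale (standard error 0.26, 95% interval 1.11 to 2.25, edgeR adjusted p = 0.000119), and left out in turn, the libraries gave values from 1.46 to 2.13. Aspn shares 7 exonic bases with Cenpp on the opposite strand, a gene that was also higher in the KO-labelled libraries (1.08 ± 0.252 and 2.75 ± 0.481 CPM), and the strand setting of the counting is not given in the sources used here.

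Lumican, the class II protein that regulates fibril spacing, showed the largest fold change of the 8. Lum (chromosome 10 from 97565128 to 97572703) was covered by 349, 411 and 370 counts in the WT-labelled libraries and 12, 7 and 7 in the KO-labelled ones. These are 11.1, 12.3 and 11.6 CPM against 0.339, 0.168 and 0.212. Lum thus went from percentile 38.65 of expression among the genes tested to percentile 0.955. The latter is close to the floor of counting, where 3 counts are between 0.0720 and 0.0957 CPM. The log2 fold change was -5.60 (standard error 0.16, 95% interval -5.95 to -5.26, edgeR adjusted p = 1.81e-11), about 48.7-fold, and 13 of the 14289 genes had a larger fall. With 7 to 12 counts behind it, the level in the KO-labelled libraries is known less well than that of Dcn: its coefficient of variation between wells was 37.0%, against 0.768% for Dcn.

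PRELP, which is thought to anchor basement membranes to the connective tissue beneath, was the other class II gene that fell. Prelp (chromosome 1 from 133910304 to 133921414) had 965, 1066 and 1027 CPM in the WT-labelled libraries and 461, 498 and 485 in the KO-labelled ones, with no overlap. The log2 fold change was -1.08 (standard error 0.04, 95% interval -1.17 to -0.99, edgeR adjusted p = 2.13e-10), or 2.12-fold lower in the KO-labelled libraries. Of its exonic bases 350 lie over Gm15851, an antisense gene that was not among the genes listed. Fibromodulin, the other class II member, binds collagen I and controls fibril maturation. Fmod (chromosome 1 from 134037254 to 134048277) had 82.2, 91.2 and 92.6 CPM in the WT-labelled libraries and 71.2, 76.3 and 79.0 in the KO-labelled ones. The lowest value labelled WT and the highest labelled KO were close, and the difference of -0.23 on the log2 scale (standard error 0.05, 95% interval -0.34 to -0.12, edgeR adjusted p = 0.00136) was under the fold limit.

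Osteoglycin of class III, a modulator of fibril width that is also called mimecan, was the only one of the 8 whose groups overlapped. Ogn (chromosome 13 from 49608046 to 49624501) had 378, 418 and 409 CPM in the WT-labelled libraries and 390, 379 and 387 in the KO-labelled ones. The difference was -0.06 on the log2 scale (standard error 0.04, edgeR adjusted p = 0.178), with a 95% interval from -0.14 to 0.02. Without replicate 1 of the WT-labelled libraries, its lowest, edgeR's adjusted p was 0.0112 at a log2 fold change of -0.10, the only one under 0.05 among 14 alternatives, which reached up to 0.943. Podocan of class V, a protein that binds collagen and restrains smooth muscle growth, differed little between the groups. Podn (chromosome 4 from 108014791 to 108096445) had 21.4, 20.3 and 19.3 CPM in the WT-labelled libraries and 17.1, 17.8 and 17.4 in the KO-labelled ones, a difference of -0.22 on the log2 scale (standard error 0.05, 95% interval -0.34 to -0.10, edgeR adjusted p = 0.00367) without overlap and under the fold limit. Between wells of a group the 8 genes mostly varied by a few percent, with coefficients of variation from 2.85% to 6.34% in the WT-labelled libraries for all but Aspn (47.0%). Replicate 1 of the WT-labelled libraries was the lowest of its group for 6 of the 8 genes.

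**Figure D2:**
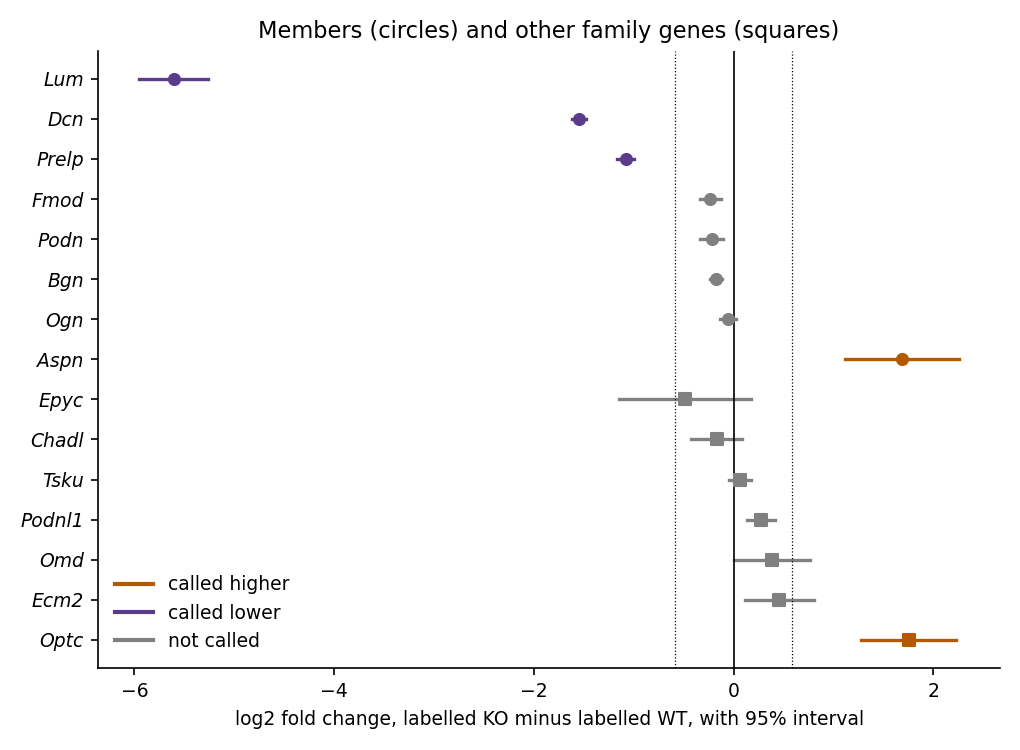
Log2 fold change of each gene, labelled KO minus labelled WT, with its 95% interval as a bar; circles are the 8 genes, squares the other family genes tested, and dotted lines mark 1.5-fold. Lum at -5.60, Dcn at -1.55 and Prelp at -1.08 lie left of the lines and Aspn at 1.68 and Optc at 1.75 right of them.

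The calls crossed the classes of the family. Class I held a gene that fell (Dcn), a gene that rose (Aspn) and a gene under the fold limit (Bgn), and class II held a pair that fell (Lum and Prelp) beside Fmod under the limit. Among the 8, genes of a class had equal numbers of exons. In the transcript with the longest coding sequence, Dcn, Bgn and Aspn each had 8 exons, Lum, Fmod and Prelp each had 3, Ogn had 7 and Podn 13. This did not hold for the whole family, since Ecm2 of class I had 10 exons, Omd of class II had 4 and Podnl1 of class V had 10. The predicted proteins run from 298 residues (Ogn) to 378 (Prelp), with Podn apart at 611.

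Levels were compared between genes as CPM per kb of exon, counted over all annotated exons of a gene. In the WT-labelled libraries the order was Bgn (828 ± 23.6), Dcn (452.7 ± 19.99), Prelp (282 ± 14.1), Ogn (157 ± 8.14), Fmod (26.8 ± 1.70), Lum (4.77 ± 0.233), Podn (4.76 ± 0.237) and Aspn (0.225 ± 0.106) CPM per kb. Lum and Podn were the neighbours in that order whose libraries overlapped. In the KO-labelled libraries it was Bgn (732 ± 4.83), Dcn (155 ± 1.19), Ogn (150 ± 2.21), Prelp (133 ± 5.19), Fmod (22.8 ± 1.19), Podn (4.08 ± 0.0821), Aspn (0.728 ± 0.0983) and Lum (0.0979 ± 0.0362) CPM per kb. None of these neighbours overlapped, although Dcn and Ogn came close at lowest and highest values of 153.7 and 151.9. Lum thus went from the sixth place to the last, and Ogn passed Prelp. The exons of all annotated transcripts add up to 6099 bases for Bgn and 5838 for Dcn, where their transcripts with the longest coding sequence have 2419 and 1758. With the lengths of such transcripts, an alternative chosen after seeing the data, Bgn stood at 2089 and Dcn at 1504 CPM per kb in the WT-labelled libraries and at 1846 and 515 in the KO-labelled ones, Podn (6.41) stood above Lum (4.77) in the former, and the order of the other genes was the same.

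Summed over the 8 genes, the WT-labelled libraries had 1756 ± 67.2 CPM per kb and the KO-labelled ones 1198 ± 4.16, or 68.2% of the former. Of that difference Dcn made up 53.4%, Prelp 26.7% and Bgn 17.2%, while Lum, with the largest fold change, made up 0.837%. The split depended on the scale: in CPM it was 59.8% for Dcn, 18.5% for Prelp and 20.2% for Bgn, and with the lengths of the transcripts with the longest coding sequence it was 70.8%, 10.7% and 17.4%. The makeup of the pool moved with it. Biglycan transcripts went from 47.2 ± 0.512% of the pool to 61.1 ± 0.337%, those of decorin from 25.8 ± 0.182% to 12.9 ± 0.144%, those of Prelp from 16.05 ± 0.218% to 11.1 ± 0.399% and those of osteoglycin from 8.91 ± 0.126% to 12.5 ± 0.233%, each without overlap between the groups. The shares of Prelp and osteoglycin were smaller on the other scales, at 11 ± 0.171% to 7.6 ± 0.277% and 4.35 ± 0.0699% to 6.08 ± 0.112% of CPM, and at 6.92 ± 0.105% to 4.98 ± 0.188% and 3.84 ± 0.0608% to 5.61 ± 0.0963% with the transcript lengths. The direction of these 4 shares was the same on all 3 scales, without overlap between the groups. The shares say nothing of protein.

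**Figure D3:**
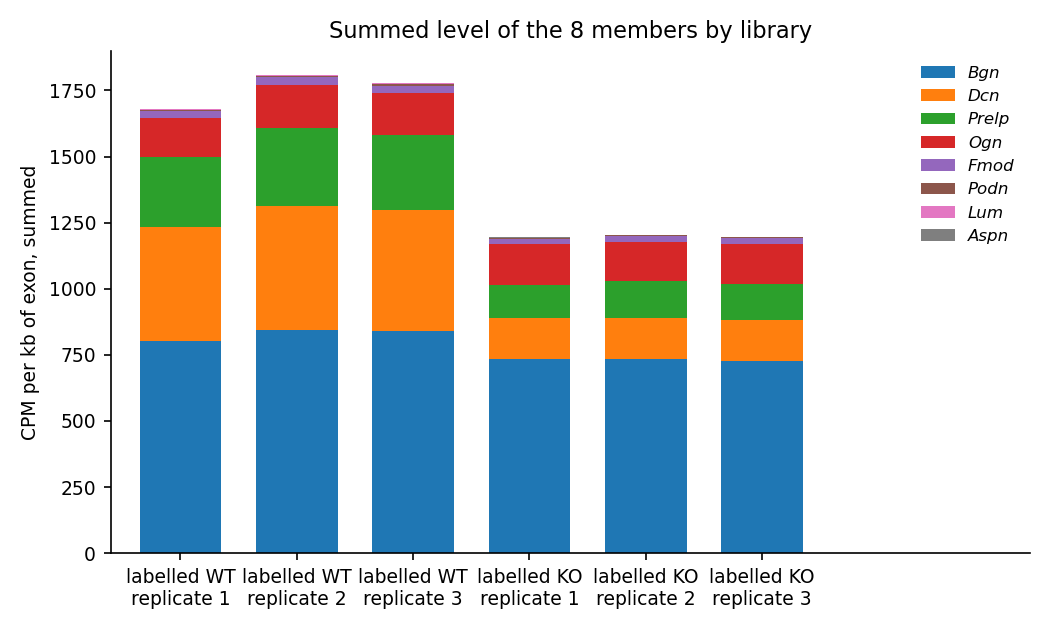
Summed CPM per kb of exon of the 8 genes in each library, 1 stacked bar for each library and 1 colour for each gene. The 3 bars labelled WT average 1756 and the 3 labelled KO 1198, and the orange (Dcn) and green (Prelp) segments are shorter in the latter.

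Ratios of counts within a library do not depend on scaling between libraries, and they showed the same shift. For every 100 Bgn counts there were 51.5, 53.3 and 52.1 Dcn counts in the WT-labelled libraries and 20.24, 19.98 and 20.55 in the KO-labelled ones. For every 1000 Dcn counts there were 4.43, 4.47 and 4.34 Lum counts in the former and 0.374, 0.187 and 0.233 in the latter. The ratio of Lum to Dcn was thus nearly constant between the wells labelled WT, and Lum had fallen further than Dcn in each KO-labelled library. Prelp had 11.5 ± 0.355 counts for each Fmod count in the WT-labelled libraries and 6.38 ± 0.207 in the KO-labelled ones, and Dcn had 2.59 ± 0.0167 and 1.88 ± 0.0814 for each Prelp count. Ogn had 7.95 ± 0.193 and 8.63 ± 0.164 counts for 100 Bgn counts, a small gap without overlap. With 3 libraries against 3, a two-sided exact permutation test of any of these ratios gave p = 0.1, the smallest it can give.

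All of the 8 genes but Bgn and Podn lie in clusters with other genes of the family. On chromosome 10, Dcn, Lum, Kera and Epyc lie within 202.8 kb on the same strand. Dcn and Lum, 47.0 kb apart, both fell in the KO-labelled libraries, by 1.55 and 5.60 on the log2 scale, while Epyc, 71.4 kb beyond Lum, had 0.593 ± 0.153 and 0.427 ± 0.117 CPM and was not called (log2 fold change -0.49, edgeR adjusted p = 0.186). Kera was not among the genes listed, and Btg1, the nearest listed protein-coding gene on the other side of Dcn at 856.8 kb, differed by -0.27. On chromosome 13, Ecm2, Aspn, Omd and Ogn lie within 119.7 kb, on the strand opposite to Cenpp. Of these family genes only Aspn was called: Ecm2 differed by 0.46 (edgeR adjusted p = 0.0246), Omd by 0.38 (edgeR adjusted p = 0.0747) and Ogn by -0.06. Cenpp, which overlaps both Aspn and Ogn, was itself called higher (log2 fold change 1.35, standard error 0.19, edgeR adjusted p = 6.17e-05). On chromosome 1, Optc, Prelp and Fmod lie within 151.1 kb, and the neighbours at 2.3 kb went opposite ways. Prelp fell by 1.08 in the KO-labelled libraries while Optc, which encodes the class III protein opticin, had 20, 15 and 16 counts in the WT-labelled libraries and 52, 86 and 59 in the KO-labelled ones and rose by 1.75 (standard error 0.22, edgeR adjusted p = 1.96e-05). Fmod, 115.8 kb from Prelp and on the other strand, stayed under the fold limit. The nearest listed genes beside the unclustered members, Haus7 (-0.29) and Slc6a8 (0.05) beside Bgn and Cpt2 (-0.22) and Scp2 (-0.06) beside Podn, were not called.

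**Figure D4:**
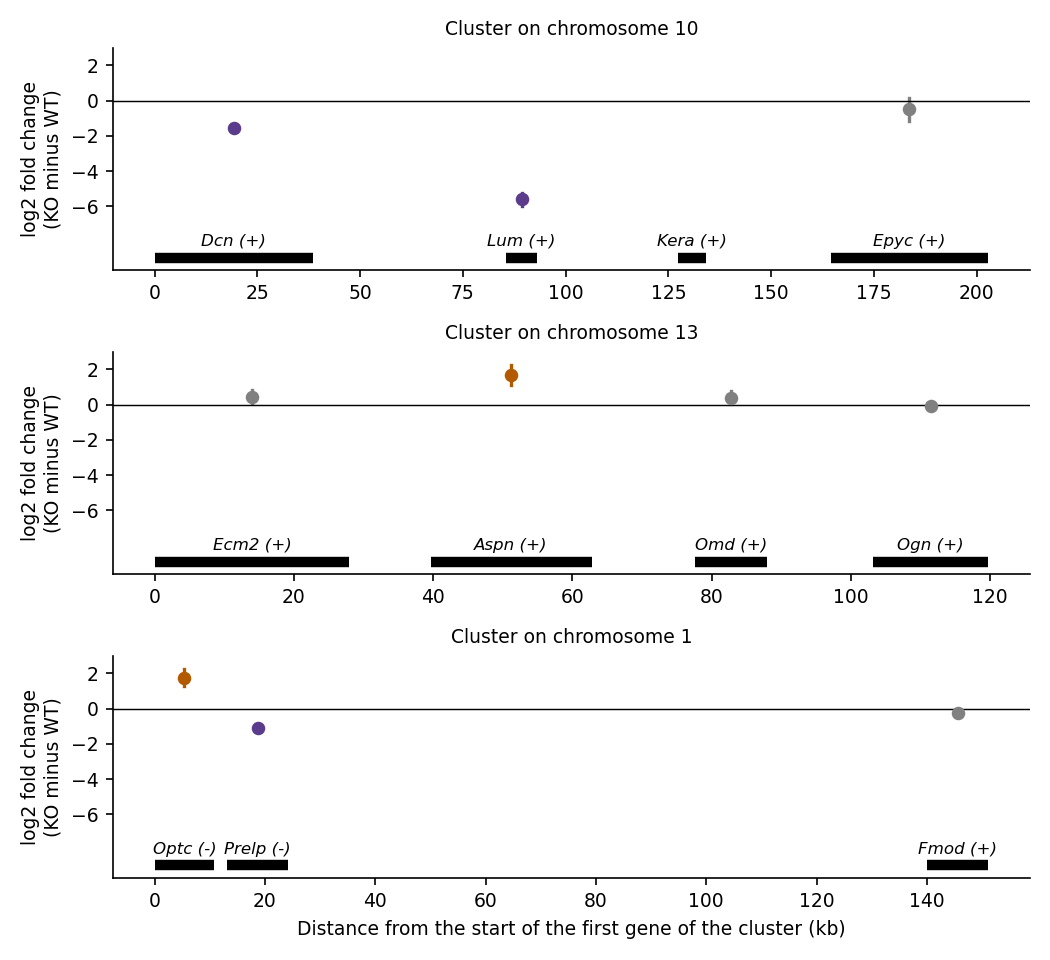
Log2 fold change (labelled KO minus labelled WT, with its 95% interval) of family genes in each of 3 clusters against the distance from the start of the first gene in kb; black bars are the genes, with their strand, and points are orange where called higher, purple where called lower and grey where not called. Dcn and Lum both lie under 0, and Aspn at 1.68 stands above the other family genes of its cluster. Optc at 1.75 and Prelp at -1.08 lie on opposite sides of 0. Kera has no point, and Cenpp, which was called higher, is not drawn.

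Promoter windows from RefSeq (GRCm38.p6) were held for 6 of the 8 genes, without Dcn and Lum. The 250 bases before the start in the RefSeq table are printed for Prelp and its cluster neighbour Fmod and for Aspn and its cluster neighbour Ogn, because in each pair 1 gene was called and the other was not. The windows are chr1:133921402-133921651 on the minus strand for Prelp, chr1:134037004-134037253 on the plus strand for Fmod, chr13:49544193-49544442 on the plus strand for Aspn and chr13:49607765-49608014 on the plus strand for Ogn. The start in that table lies a few bases inside the GENCODE gene for Prelp and some bases before it for Ogn, and distances are counted from the start in the table. Each window is written 5′ to 3′ along the gene, and capitals mark matches on either strand to the motifs searched.
Prelp: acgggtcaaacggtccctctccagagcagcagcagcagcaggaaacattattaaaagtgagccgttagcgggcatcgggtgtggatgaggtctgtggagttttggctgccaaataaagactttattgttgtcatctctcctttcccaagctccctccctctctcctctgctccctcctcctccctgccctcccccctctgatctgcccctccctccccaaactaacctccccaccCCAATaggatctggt
Fmod: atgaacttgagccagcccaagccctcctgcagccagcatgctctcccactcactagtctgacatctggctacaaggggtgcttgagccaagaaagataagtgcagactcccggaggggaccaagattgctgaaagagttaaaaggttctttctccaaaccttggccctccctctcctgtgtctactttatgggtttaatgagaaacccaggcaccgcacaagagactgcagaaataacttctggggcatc
Aspn: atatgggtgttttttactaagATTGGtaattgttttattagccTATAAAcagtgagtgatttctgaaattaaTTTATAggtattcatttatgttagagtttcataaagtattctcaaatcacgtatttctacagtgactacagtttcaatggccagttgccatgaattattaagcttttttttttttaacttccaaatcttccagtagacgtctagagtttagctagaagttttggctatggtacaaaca
Ogn: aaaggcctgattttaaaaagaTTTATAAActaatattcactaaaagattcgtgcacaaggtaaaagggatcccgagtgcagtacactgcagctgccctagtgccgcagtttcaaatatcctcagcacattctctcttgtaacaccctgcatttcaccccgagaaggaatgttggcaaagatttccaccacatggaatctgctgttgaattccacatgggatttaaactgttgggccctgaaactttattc
The motifs were the GLI site GACCACCCA, the TATA box TATAAA, the AP-1 site TGANTCA, the GC box GGGCGG and the CCAAT box CCAAT. Capitals near the end of the Prelp window are a match to the CCAAT box, beginning 15 bases before that start. The match lies across the start of the GENCODE gene, so that part of it is inside the annotated gene. Aspn had a CCAAT box and a pair of TATA boxes, the nearest of them beginning 178 bases before the start, Ogn had overlapping TATA boxes on both strands, and Fmod had no match. No GLI site was found in any of the 6 genes' windows, and 0.225% of the 32851 windows of that length in the table held it. TATA boxes were held by 12.4% of all windows, AP-1 sites by 6.75%, GC boxes by 32.7% and CCAAT boxes by 33.8%. The Aspn window was rich in A and T at 30% GC and that of Prelp had 55.6%, where the median of all windows was 52.4%.

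Of the 10 other genes of the family, 7 were tested and 1 was called, Optc, or 14.3% beside 17.7% of all genes. Tsku, a secreted protein that binds several growth factors, was the most abundant of them in CPM (30.9 ± 1.75 and 32.3 ± 0.940) and was not called (log2 fold change 0.07, edgeR adjusted p = 0.275). Podnl1, the relative of podocan, had 11.99 ± 0.879 and 14.5 ± 0.337 CPM, a difference of 0.27 (edgeR adjusted p = 0.00329) opposite in sign to that of Podn (-0.22). Chadl had 4.196 ± 0.192 and 3.71 ± 0.483 CPM and was not called. The other genes tested were each under 2 CPM in both groups, and Kera, Chad and Nyx were not among the genes listed.

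The genes around the 8 were read from lists of the enzymes that build their sugar chains, the collagens they bind, their receptors and the proteases that cut them. Of 20 tested genes of the tetrasaccharide linker and of chondroitin and dermatan sulfate synthesis, 2 were called, both higher in the KO-labelled libraries (10% of the list beside 17.7% of all genes, median log2 fold change -0.07). They were Chst7 (log2 fold change 0.95, standard error 0.09, edgeR adjusted p = 1.05e-06), a chondroitin 6-O-sulfotransferase, and Ust (0.91, standard error 0.05, edgeR adjusted p = 1.64e-08), which sulfates uronic acid. Without replicate 3 of the WT-labelled libraries the count was 4, with Csgalnact1 (0.61) and Xylt1 (3.26) added. Xylt1, which starts the chain, had 1, 1 and 1 counts against 10, 14 and 12 and was removed by the filter on low counts. It was called without that filter (log2 fold change 3.25, edgeR adjusted p = 0.000168) and when any of 4 single libraries was left out. The filter itself was looser in those 4 fits, which tested 14483 to 14547 genes beside 14289. Xylt1 entered them only through its KO-labelled counts, so these calls add no independent support. Xylt2, its relative on the same list, had 47.5 ± 0.497 and 38.1 ± 1.40 CPM, where Xylt1 had 0.0310 and 0.327. Xylt2 was thus lower in the KO-labelled libraries, though under the fold limit (log2 fold change -0.32, edgeR adjusted p = 1.67e-05). The epimerase gene Dse, which turns chondroitin into dermatan sulfate, had 202 and 222 CPM, a difference under the fold limit (log2 fold change 0.13, edgeR adjusted p = 0.00163). Of 7 tested genes of keratan sulfate synthesis 1 was called (14.3% beside 17.7% of all genes), B4galt4 (0.80, standard error 0.06, edgeR adjusted p = 1.88e-07), a galactosyltransferase, which was higher in the KO-labelled libraries.

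Of 12 tested collagen genes whose proteins are bound by the family, 4 were called, 2 higher and 2 lower in the KO-labelled libraries (33.3% beside 17.7% of all genes, median log2 fold change 0.02). Col14a1, a fibril-associated collagen that binds decorin, fell by 4.65 on the log2 scale (standard error 0.16, edgeR adjusted p = 1.27e-10), from 462, 528 and 453 counts to 33, 18 and 14. The fibrillar Col3a1 fell by 0.94 (standard error 0.03, edgeR adjusted p = 1.03e-10), from 8970 ± 187 to 4678 ± 194 CPM. Col11a1 rose by 3.11 from 4, 2 and 3 counts to 29, 27 and 35, and Col5a3 rose by 1.48. Col1a1, the most abundant of the list in CPM, differed by 0.01 (standard error 0.04, edgeR adjusted p = 0.799). Col6a1, Col6a2 and Col6a3, whose protein is a binding partner of decorin and biglycan, differed by 0.05, 0.02 and -0.29. Col6a3 was thus lower in the KO-labelled libraries (edgeR adjusted p = 0.00633), though under the fold limit and with overlap between the groups.

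Of 20 tested genes of receptors and growth factor partners, 4 were called, 2 higher and 2 lower in the KO-labelled libraries (20% of the list beside 17.7% of all genes). Tlr2, a Toll-like receptor that soluble biglycan and decorin can engage, rose from 1.94 ± 0.384 to 6.84 ± 0.385 CPM (log2 fold change 1.82, standard error 0.13, edgeR adjusted p = 9.35e-08). Its partner in biglycan signalling, Tlr4, had 34.99 and 26.3 CPM. Tlr4 was thus lower in the KO-labelled libraries, though under the fold limit (log2 fold change -0.41, edgeR adjusted p = 9.43e-06). Ccn2, which encodes connective tissue growth factor, rose by 1.11. The purinergic receptor genes P2rx7 and P2rx4, which biglycan is known to engage or cluster with the Toll-like receptors, fell by 0.78 and 0.70. Of the TGF-beta genes Tgfb1, Tgfb2 and Tgfb3 none was called, at differences of 0.50, -0.35 and 0.30 with edgeR adjusted p under 0.05 each, and Egfr and Met, receptors that decorin binds, differed by 0.17 and 0.41.

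Of 13 tested genes of proteases and their enhancer, 6 were called, 4 higher and 2 lower in the KO-labelled libraries (46.2% beside 17.7% of all genes, median log2 fold change -0.13). Tll1, of the family of procollagen C-proteinases that also mature biglycan, rose from 1.28 ± 0.473 to 10.8 ± 1.199 CPM (log2 fold change 3.07, standard error 0.17, edgeR adjusted p = 1.13e-08). The main enzyme of that family, Bmp1, had 452 and 403 CPM, a difference under the fold limit (log2 fold change -0.17, edgeR adjusted p = 0.000208). Adamts5, an aggrecanase, rose from 63.5 ± 3.17 to 290 ± 22.8 CPM (log2 fold change 2.19, standard error 0.06, edgeR adjusted p = 5.93e-12). Mmp3, a stromelysin known to cleave decorin, fell by 0.98 (standard error 0.10, edgeR adjusted p = 4.18e-06) and Mmp9 by 1.31 from under 1 CPM. Among other proteoglycans and proteoglycan-like proteins of the matrix 7 of 8 tested genes were called, 4 higher and 3 lower (87.5% beside the same 17.7%, median log2 fold change 0.32). Smoc2 rose by 3.20 (standard error 0.06, edgeR adjusted p = 3.25e-13), from 6.18 to 56.7 CPM. At lower levels, Smoc1 rose by 2.29 (0.269 to 1.33 CPM) and Spock2 by 1.61 (0.942 to 2.90 CPM). Vcan, the large hyaluronan-binding proteoglycan versican, fell from 251 ± 9.61 to 118 ± 8.65 CPM (log2 fold change -1.10, standard error 0.05, edgeR adjusted p = 1.13e-09). These directions too are those of labels that Gli2 and Gli3 counts go against, and they stand beside the rise of all 5 listed mesothelial markers.

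**Figure D5:**
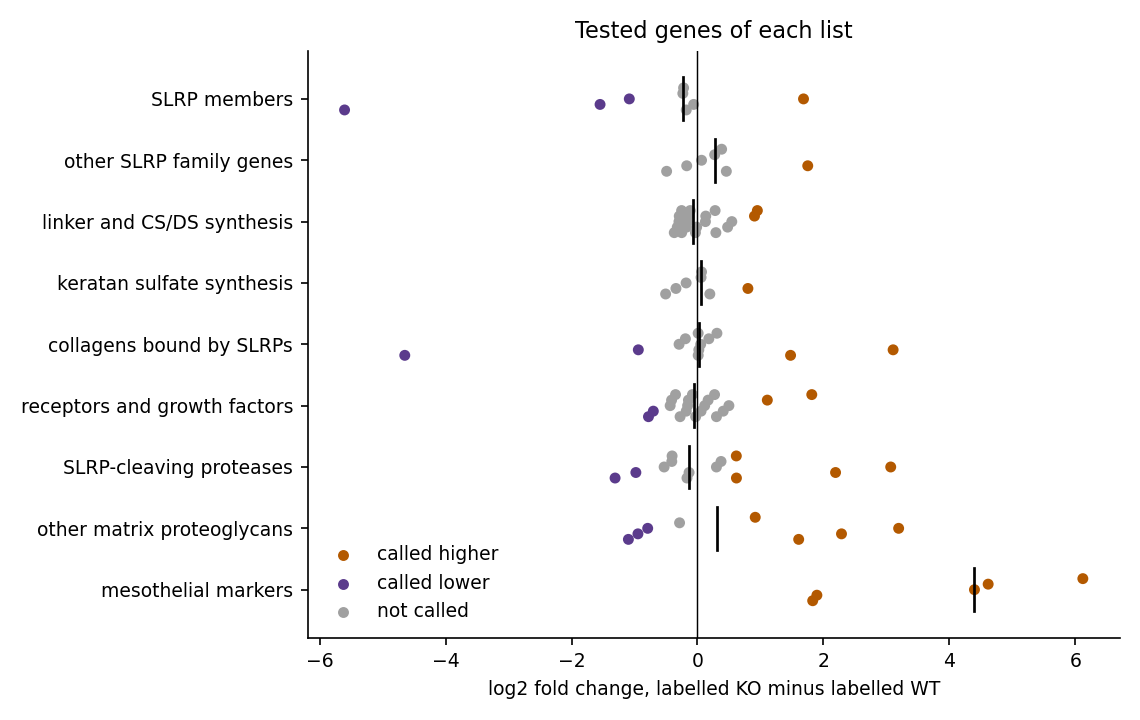
Log2 fold change (labelled KO minus labelled WT) of every tested gene of each list, 1 point for each gene, orange where called higher, purple where called lower and grey where not called; the black line is the median of the list, and CS/DS is chondroitin and dermatan sulfate. The 8 members have a median of -0.23 with Lum far to the left, and the 5 mesothelial markers have a median of 4.40.

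The genes whose profiles over the 6 libraries were most like those of the members were ranked by Pearson's r of log2 CPM among 12314 other genes of at least 1 CPM, with no test, the 6 points sharing the gap between the groups. For Dcn these were Acadl (r = 0.99994) and Pltp (r = 0.99992), for Lum they were Mn1 (r = 0.99976) and Gm13394 (r = 0.99967), and for Prelp they were Insc (r = 0.99964) and Srpk2 (r = 0.99962). That such values are common is seen from the 660 genes with r over 0.99 to Dcn. Pearson's r takes no account of the size of a change. On the log2 scale Acadl and Pltp differed by -0.43 and -0.91, against -1.55 for Dcn. Mn1 and Gm13394 differed by -0.38 and -0.45, against -5.60 for Lum. The values were -0.85 for Insc and -0.34 for Srpk2, against -1.08 for Prelp. For Ogn 1 gene had r over 0.99, Itpkb (r = 0.99459), with Tef next (r = 0.9897), and for Fmod 10 genes had it, led by Stag2 and Cep41. For Aspn the closest were Rapgefl1 (r = 0.9963) and Gnb4 (r = 0.99437), and for Podn they were Fbxo24 and Wtap. Rapgefl1 and Gnb4 differed by 0.39 and 0.35 on the log2 scale, against 1.68 for Aspn.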

How the data were processed

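RNAseq of immortalized mouse pancreatic fibroblasts was read from 6 libraries of polyadenylated RNA, grouped by the labels, with replicates numbered in accession order. The authors deposited raw counts of reads per gene and log2 CPM values that equal limma's voom transform of those counts. The submitters' processing notes list STAR 2.7.2b, featureCounts, limma and GRCm38.p6, without role or strand setting. No test for these counts is stated in the study's methods.

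Members, lists and the 1.5-fold limit were chosen with earlier results of these data known. Genes named are the 8 members, other family genes, Gli1, Gli2, Gli3 and Xist. Up to 4 called genes of each list are named by size of change (markers as sums). Flanking listed genes and the 2 genes most like a member by Pearson's r are named too. Others are named for context, after their values were seen (Dse, Tsku, Bmp1, Tlr4, Egfr, Met, Xylt2, Col1a1, Col6a1, Col6a2, Col6a3, the TGF-beta genes and single markers). The genes most like Bgn are not reported here.

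The main test was the quasi-likelihood F test of edgeR 4.0.16 (R 4.3.3), after TMM and filterByExpr, with Benjamini-Hochberg adjustment over 14289 genes. Standard errors come from the fold change and its F statistic. The test was checked on simulated data. Of 14831 identifiers 14822 matched GENCODE M21 without version; its exons gave lengths. Replicate pairs had a chi-square per degree of freedom of 2.47 to 7.53, so no library was a duplicate. Intervals for low counts rest on few reads, and floors cover counting error only. As alternatives, scaling was by RLE, by the upper quartile or by totals, filters and fold limits were varied, and the tools were DESeq2 1.42.0, limma 3.58.1 on the counts (voom) and on the deposited log2 values, with each library also left out.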

Additional observations from a re-analysis of the deposited data

How the results depend on the processing

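All 8 log2 fold changes kept their sign and call in each of 14 alternatives (13 for Lum, not tested where 10 counts were required in every library, so that 3 of the 8 genes were called there). Across scalings, filters, tools and left-out libraries, Dcn lay between -1.58 and -1.49, Lum between -5.94 and -5.38, Prelp between -1.12 and -1.03 and Aspn between 1.46 and 2.13; Ogn lay between -0.10 and -0.0035, and 1 of its 14 adjusted p values was under 0.05. With 10 counts required in every library, 3 collagens, 5 proteases and 6 other matrix proteoglycans were called, beside 4, 6 and 7. Col11a1, Mmp9 and Smoc1, with fewer counts in some libraries, were not tested there. The fold limit moved the counts most. Without it 7 members, 8391 of all genes (2531 with it), 3 other family genes, 16 genes of linker and chondroitin or dermatan sulfate synthesis, 4 of keratan sulfate synthesis, 8 collagens, 16 receptors and partners and 11 proteases passed. At 2-fold, 1456 of all genes, 0 and 0 genes of the sulfate lists, 2 receptors and partners, 3 proteases and 4 other matrix proteoglycans passed, by edgeR adjusted p. Leaving out each library gave 2 to 4 genes of the chondroitin list, with Xylt1 among them only where the looser filter let it in. No paired analysis was possible because the labels give no replicate numbers. Lum and Aspn, at 7 to 68 counts in 1 or both groups, are limited by depth.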
